A study of Mus musculus with 6 samples.

Results

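Complement is a cascade of plasma and tissue proteins that marks microbes, dying cells and immune complexes for removal, and 9 of its genes were followed across colonic tumors of mice: C1qa, C1qb, C1qc, C2, C3, C4b, Cfb, Cfp and Cd55. They were taken by gene name from a deposited table of 24797 genes, in which each of the 9 had 1 row. The tumors had been induced in mice with AOM/DSS, that is the colon carcinogen azoxymethane followed by dextran sulfate sodium, an agent that injures the colonic epithelium and causes colitis. The mice of 3 tumor samples had a wildtype glucocorticoid receptor (GRwt) and those of 3 others a receptor deficient in dimerization (GRdim), and both genotypes received AOM/DSS. This receptor regulates genes in response to corticosterone, and the design asks how tumor transcripts differ when its dimerization is impaired. Strain, age, doses, the time of sampling and the way tumors were pooled or split are not given in the labels, and neither is whether each sample came from an animal of its own. The p-values therefore measure only the spread between these samples, which may in part be technical.

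As background, complement is started by separate routes that meet at C3. In the classical route C1q, built from the products of C1qa, C1qb and C1qc, binds antibody or altered surfaces and sets off the proteases that cleave C4 and C2. In the alternative route factor B (Cfb) joins deposited C3 fragments to form a further convertase, the enzyme that cleaves C3, and properdin (Cfp) holds that convertase together. Cd55, or decay-accelerating factor, sits on host cell membranes and takes convertases apart. Most plasma complement is made in the liver, but macrophages make C1q and properdin, and epithelial and stromal cells can make C3, C4 and factor B locally.

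The C1q genes lie side by side on chromosome 4, minus strand, within 18.7 kilobases (GRCm39, positions 136607440 to 136626114 in the deposited table). C4b, Cfb and C2 lie on the minus strand of chromosome 17, with 85 bases between the ends of Cfb and C2 (Cfb at 35075350 to 35081494, C2 at 35081580 to 35117241, C4b at 34947354 to 34962856). C3 lies elsewhere on chromosome 17 (57510970 to 57535136), Cfp on chromosome X (20791693 to 20797794) and Cd55 on chromosome 1 (130366764 to 130390481), all on the minus strand. Reads of some of these genes could be confused with those of others. Of all windows of 50 bases in the GENCODE vM21 transcripts of C4b, 34.6% also occurred in those of its close copy C4a, and 8% of the Cd55 windows occurred in those of its copy Cd55b. The 3 C1q genes shared none with one another, nor did Cfb with C2 or C3 with C4b. C2 overlaps Zbtb12 and the noncoding Gm56901, and Cd55 overlaps the noncoding Gm16083, each on the opposite strand. The library kit keeps strand, but the strand setting of the counting is not given, so reads of overlapping genes may not be told apart. This matters more for C2, at 75 to 199 counts per library against 246 to 561 for Zbtb12 and 79 to 200 for Gm56901. Cd55 had 2446 to 3504 counts per library, and Gm16083 had 0 to 8. C4b has no such overlap, and its values are uncertain because of the sequence it shares with C4a.

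Because C1qb and C1qc varied together across the tumors, as described below, the 250 bases before their start sites are shown from RefSeq in build GRCm38.p6, minus strand, written 5′ to 3′. Of the 9 genes, 5 had an entry in that table. Capitals mark the core GAGGAA of the binding site of PU.1, a transcription factor of myeloid cells, and the glucocorticoid half-site AGAACA, on either strand; these motifs did not overlap. The C1qb window is chr4:136886201-136886450 and the C1qc window chr4:136892915-136893164.
C1qb: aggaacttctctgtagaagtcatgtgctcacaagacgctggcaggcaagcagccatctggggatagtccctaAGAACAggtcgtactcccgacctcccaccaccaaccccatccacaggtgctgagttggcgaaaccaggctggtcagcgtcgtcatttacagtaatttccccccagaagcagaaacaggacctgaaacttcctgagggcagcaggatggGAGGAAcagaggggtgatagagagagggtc
C1qc: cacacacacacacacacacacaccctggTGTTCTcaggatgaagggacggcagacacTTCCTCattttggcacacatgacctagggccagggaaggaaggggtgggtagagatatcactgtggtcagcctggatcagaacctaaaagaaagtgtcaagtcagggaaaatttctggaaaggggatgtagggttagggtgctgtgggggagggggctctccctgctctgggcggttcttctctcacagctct
The C1qb and C1qc windows each held 1 match to each motif, and the windows of C3, Cfp and Cd55 held neither. Among 32851 promoter windows of the same length, 23.3% held GAGGAA and 16.1% held AGAACA. The whole glucocorticoid element, AGAACA followed after 3 bases by its reverse complement TGTTCT, occurred in 0.00913% of all windows, and the STAT motif TTCNNNGAA in 7.02%. Neither was found in the windows of C1qb, C1qc, C3, Cfp or Cd55, which says only that these letters are not in these windows.

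Total counts ran from 21132981 to 36222351 per library. Levels are given as CPM, the share of a library's counts in parts per 1000000, with the library total scaled by TMM (trimmed mean of M values, which corrects for differences in composition). Epithelial markers were abundant in every library, with Epcam at 2110 to 2870 CPM and Krt8 at 2560 to 4200 CPM. Several libraries stood apart. The library names of GRwt replicate 3 and GRdim replicate 1 contain a T, and the ribosomal sequence Rn18s-rs5 made up 2.51% and 2.05% of their counts, against at most 0.0725% in the other 4. GRdim replicates 1 and 3 share a number in their library names, so they may not be independent. GRdim replicate 2 alone carried the Y-linked transcript Ddx3y at more than trace level (62.4 CPM relative to the plain library total, against at most 0.71 CPM). Xist, the noncoding RNA that silences an X chromosome in female cells, stood there at 0.267 CPM against 539.9 to 1277 CPM in the other 5, so it differed from them in sex-linked transcripts, and it is the GRdim library that stands apart in C4b, Cfi and the stromal markers below; the part of sex in these values cannot be told apart from that library.

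No difference between GRdim and GRwt tumors in any of the 9 complement transcripts passed the test against the spread between samples. With the edgeR quasi-likelihood test over 18756 genes, 0 of the 9 passed an adjusted p of 0.05, where the share of all genes passing was 0%. At an unadjusted p under 0.05, 0 of the 9 passed, against 2.88% of all genes (541). DESeq2 called 33 genes (0.189%) and limma-voom called 0, and no member was among the DESeq2 calls. In none of the 9 did the genotypes separate without overlap, which occurred in 6.55% of all genes. 4 members had a higher and 5 a lower fitted level in GRdim tumors, with a median log2 fold change of -0.01, beside 0.0040 over all genes tested. Fold changes are throughout GRdim minus GRwt on the log2 scale. Most intervals are wide: the 95% intervals of the fold ran from 0.759 to 1.37 for Cd55, the narrowest, to 0.523 to 2.66 for Cfb, the widest, so changes within these bounds are not excluded for those genes.

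**Figure D1:**
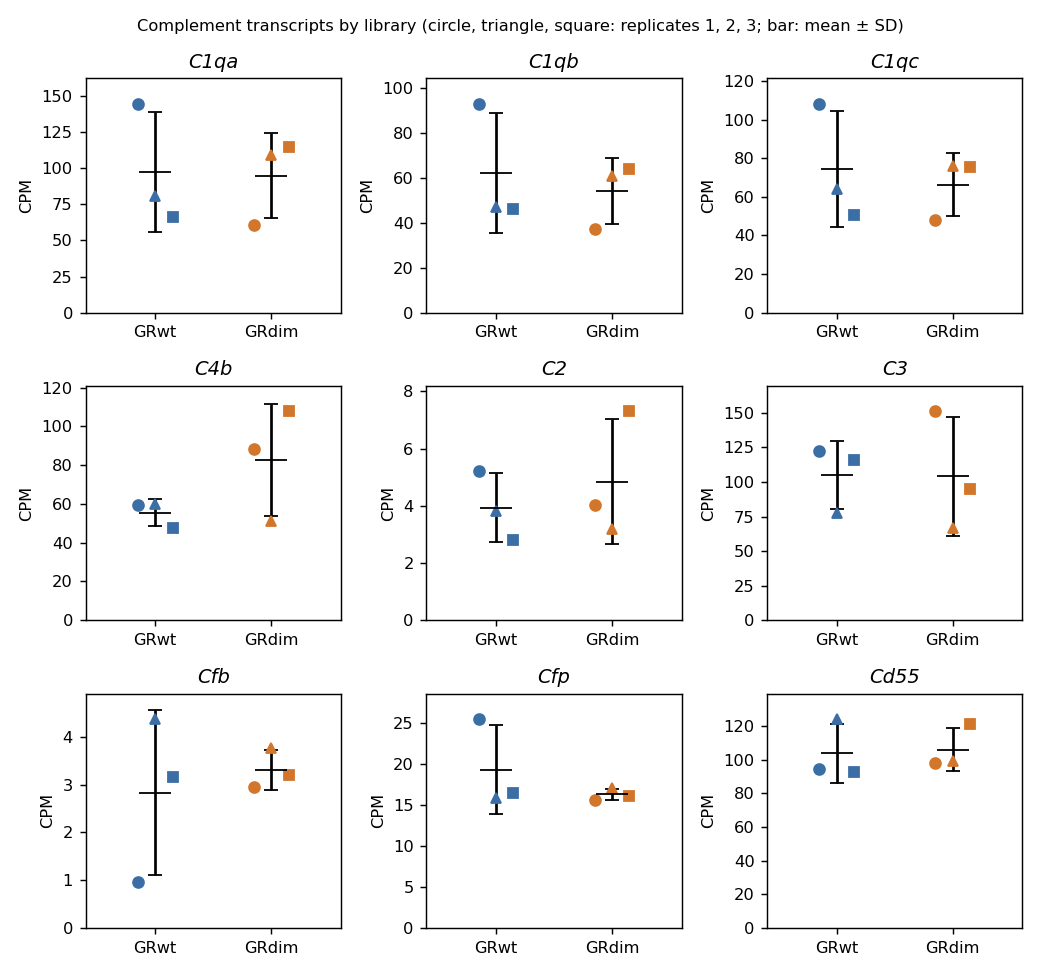
CPM of each complement gene in every library, with replicates 1, 2 and 3 of each genotype as circle, triangle and square and the mean ± SD (n = 3) as a bar; each vertical axis starts at 0. The genotypes overlap in all 9 panels, and C4b has GRdim replicates 1 and 3 at 88.5 and 108 CPM above the GRwt libraries while GRdim replicate 2 lies among them at 51.2 CPM.

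Levels between genes were compared per kilobase of exon, using exon lengths from GENCODE vM21, which were found for all 9. A length counts every base that is in an exon of any transcript of the gene. C1qa stood highest, at a mean over the 6 libraries of 92.5 CPM per kilobase, followed by C1qb at 53.3 and C1qc at 36.4 CPM per kilobase. Cd55 and C3 followed at 21.7 and 20.4, C4b and Cfp at 12.1 and 10.2, and C2 and Cfb at 1.13 and 1.09 CPM per kilobase. In 6 of 6 libraries C1qa was above C1qb, C1qb above C1qc, and C1qc above Cd55, although their ranges over libraries overlapped. The order of C1qb and C1qc rests on the lengths used, 1088 and 1931 bases. By CPM alone C1qc was above C1qb in every library. Cd55 and C3 could not be ordered, each being higher in 3 of 6 libraries, and the same held for C4b and Cfp. C3 was above C4b in 5 of 6 libraries, and C2 was above Cfb in 2 of 6. The one clear gap was between Cfp, never under 8.99 CPM per kilobase, and C2, never over 1.89.

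**Figure D2:**
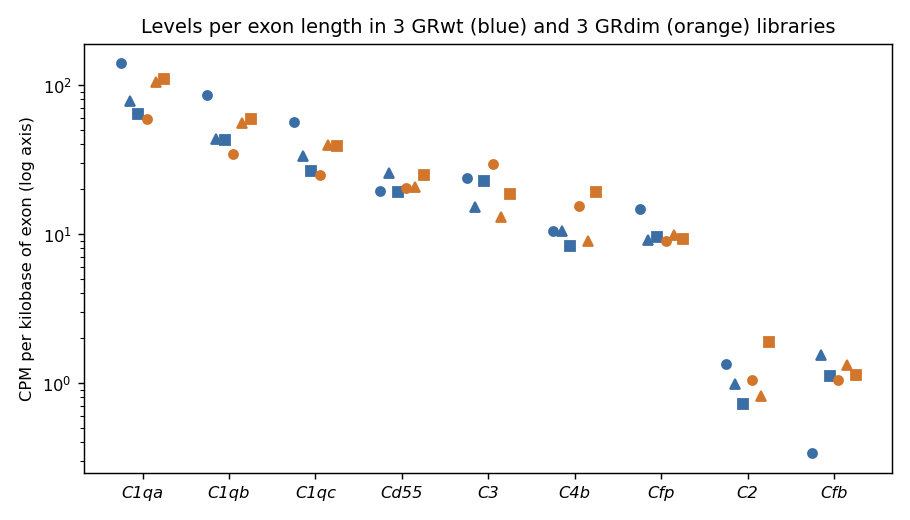
CPM per kilobase of exon on a log axis for each gene and library, GRwt in blue and GRdim in orange, ordered by the mean over 6 libraries. The C1q genes lead, and C2 and Cfb lie below every value of the other 7 genes.

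The C1q genes encode the recognition molecule of the classical route. C1qa stood at 145, 81.0 and 66.5 CPM in GRwt and at 60.9, 109 and 114 CPM in GRdim tumors, values by library being listed here and below in the order of replicates 1, 2 and 3. The highest library was GRwt replicate 1 and the lowest GRdim replicate 1, with the other 4 interleaved. C1qb stood at 93.0, 47.0 and 46.1 CPM in GRwt and at 37.1, 60.7 and 64.0 CPM in GRdim tumors, in the same order of libraries. C1qc stood at 108, 63.9 and 50.8 CPM in GRwt and at 47.8, 76.1 and 75.3 CPM in GRdim tumors. In each genotype the library named with a T held the least of all 3 transcripts. The log2 fold changes were -0.04 with a standard error of 0.339 for C1qa, -0.20 with 0.322 for C1qb and -0.16 with 0.306 for C1qc (edgeR, adjusted p = 0.9999 for each). The exact two-sided permutation p-values of log2 CPM were 1, 0.8 and 0.9, where 0.1 is the smallest that 3 against 3 allow. Leaving out GRwt replicate 1 gave 0.36, 0.21 and 0.21 for the 3 genes, and leaving out GRdim replicate 1 gave 0.20, 0.0036 and 0.02, so the sign changed without either library.

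The 3 transcripts kept nearly fixed proportions while their levels varied. C1qa ranged over the 6 libraries by a factor of 2.38, C1qb by 2.5 and C1qc by 2.27, against a median factor of 1.59 over genes with a mean of at least 10 CPM. The ratios given here are of CPM, not of CPM per kilobase. Within a library the ratio of C1qa to C1qb lay between 1.44 and 1.80 and that of C1qa to C1qc between 1.27 and 1.52. That of C1qc to C1qb lay between 1.10 and 1.36. Pearson's r of log2 CPM over the 6 libraries was 0.97 for C1qa with C1qb, 0.98 for C1qa with C1qc and 0.97 for C1qb with C1qc. The Spearman rho values were 1, 0.94 and 0.94. These are descriptions over 6 points that share library depth and composition. The mean log2 ratio of C1qa to C1qb was 0.65 ± 0.128 in GRwt and 0.80 ± 0.0756 in GRdim tumors (SD, n = 3 each), with overlapping values.

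C1q is known as a product of tissue macrophages, yet over the 6 libraries C1qa, C1qb and C1qc had an r of 0.0009, 0.09 and -0.05 with the mean of the macrophage markers. In bulk tissue fewer cells of a type and less RNA per cell cannot be told apart. Of 15 macrophage markers, all tested, 10 were higher and 5 lower in GRdim tumors, with a median log2 fold change of 0.19. Of the 5, 1 had an unadjusted p below 0.05, against 1.09% of all genes that were lower at that p. Cd14 alone separated the genotypes without overlap, being lower in GRdim tumors, as 3.57% of all genes were. The summed level of the 15 markers ran from 293.7 to 362.8 CPM in GRwt and from 289.9 to 302.6 CPM in GRdim tumors, and none was at 0 in any library. On the log2 CPM scale, with the GRwt mean set to 0, the mean of these markers lay at 0.14, -0.26 and 0.12 in GRwt and at 0.22, 0.07 and 0.10 in GRdim tumors. The mean of the C1q genes on the same scale lay at 0.65, -0.22 and -0.43 in GRwt and at -0.61, 0.14 and 0.18 in GRdim tumors. GRdim replicate 1 was the lowest library in C1q and the highest in this mean of log2 values, but by the summed level of the markers it stood near the bottom at 290.2 CPM. By that summed level GRwt replicate 1, the highest library in C1q, was also the highest, at 362.8 CPM. The sum leans on Cd14, in every library the most abundant of the 15 markers. Cd14 stood at 162, 164 and 110 CPM in GRwt and at 81.4, 108 and 103 CPM in GRdim tumors, lowest in GRdim replicate 1. The order of the libraries by summed level may therefore reflect this marker alone, and a sum without it was not formed. The ratio of C1q to these markers ranged from 4.61 in GRdim replicate 1 to 11.6 in GRwt replicate 1 over the 6 libraries, as a ratio of geometric means. Single markers parted ways, and the markers named here were chosen after their values were seen. Across the 6 libraries Cd68, a lysosomal protein of macrophages, had an r of 0.95 with C1q, and Aif1 an r of 0.77. Mrc1, the mannose receptor, had an r of -0.49 and Mertk, a receptor for engulfing dying cells, -0.79. Of the 15 markers 8 had an r above 0 and 7 below. Among those below, Cd163, Folr2 and Timd4 averaged only 0.819, 0.463 and 1.84 CPM over the 6 libraries. They count in the mean of the markers as much as the abundant ones.

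**Figure D3:**
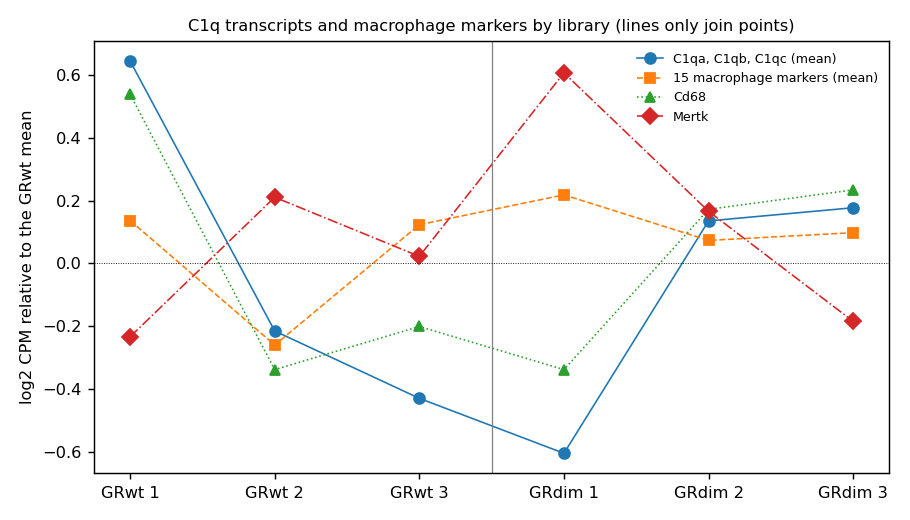
Mean log2 CPM of the 3 C1q genes and of 15 macrophage markers, with Cd68 and Mertk alone, in each library relative to the GRwt mean; lines only join the points. C1q and Cd68 are both highest in GRwt replicate 1 and low in GRdim replicate 1, where Mertk and the marker mean are highest.

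C4b and C2 supply the classical and lectin routes with the C3 convertase. C4b stood at 59.2, 59.9 and 47.4 CPM in GRwt and at 88.5, 51.2 and 108 CPM in GRdim tumors. GRdim replicates 1 and 3 lay above every GRwt library, and GRdim replicate 2 lay within the GRwt range. The means were 55.5 ± 7.04 and 82.6 ± 28.9 CPM (SD, n = 3 each), and the log2 fold change of 0.57 with a standard error of 0.27 was the largest among the 9 genes in size. It did not pass (edgeR, unadjusted p = 0.0648, adjusted p = 0.9999; exact permutation p = 0.3). The fold had a 95% interval from 0.97 to 2.28. Over 14 alternatives the log2 fold change stayed positive, from 0.32 without GRdim replicate 3 to 0.82 without GRdim replicate 2, with adjusted p from 0.68 upwards. With GRdim replicates 1 and 3 summed it was 0.42, and it was also 0.42 when the 4 libraries named without a T were used alone. Reads shared with C4a may enter these values. C4a itself stood at 2.59, 2.24 and 3.70 CPM in GRwt and at 4.49, 2.75 and 4.41 CPM in GRdim tumors, and in GRdim it was likewise lowest in replicate 2. C4b was 12.6 to 26.0 times C4a within a library.

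The same GRdim libraries that were high in C4b were high in the mean log2 CPM of stromal markers. Relative to the GRwt mean, 10 fibroblast markers lay at 0.57, -0.61 and 0.67 in GRdim replicates 1, 2 and 3 and between -0.11 and 0.21 in GRwt tumors. Their summed level ran from 1682 to 2324 CPM in GRwt and from 1073 to 2648 CPM in GRdim tumors, 8 of 10 being higher in GRdim (5 of 10 with limma-voom), with 0 at an unadjusted p under 0.05. Smooth muscle markers lay at 0.95, -0.17 and 2.13 in GRdim and between -0.13 and 0.13 in GRwt tumors, 8 of 8 being higher and 7 of them at an unadjusted p under 0.05, against 1.79% of all genes. None of the 8 separated the genotypes without overlap. Their summed level ran from 1270 to 1465 CPM in GRwt and from 1226 to 6435 CPM in GRdim tumors. The 7 tested adipocyte markers lay at 2.79, -0.55 and 1.86 in GRdim and at 1.24, -0.53 and -0.71 in GRwt tumors. Their summed level ordered the libraries otherwise, at 140.5, 155.3 and 103.8 CPM in GRwt and 246.1, 103.5 and 122.6 CPM in GRdim tumors. That sum leans on Pck1, at 124 CPM in GRwt replicate 2 and 15.5 CPM in GRdim replicate 3. The mean of log2 values leans on low transcripts, Adipoq and Plin1 being at or near 0 in GRwt replicates 2 and 3 and GRdim replicate 2. Over the 6 libraries the r of C4b was 0.87 with the fibroblast, 0.92 with the smooth muscle and 0.84 with the adipocyte markers. The Spearman rho values were 0.71, 0.60 and 0.89. These are descriptions in which each point is 1 library. Measured against the fibroblast markers, a ratio added after the values were seen, C4b lay on the log2 scale at -0.95, -0.61 and -0.97 in GRwt and at -0.73, -0.34 and -0.54 in GRdim tumors, and these values overlapped. What part stromal content had in the C4b level was not tested.

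**Figure D4:**
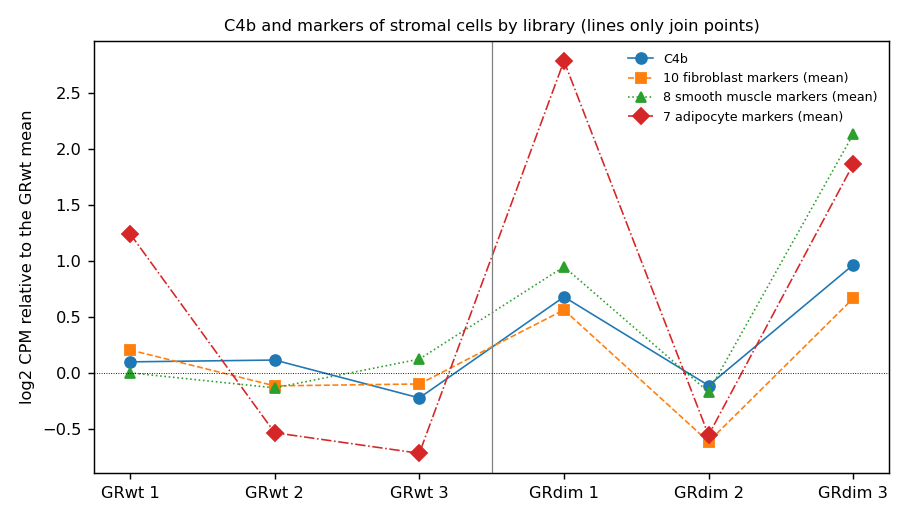
C4b and the means of 10 fibroblast, 8 smooth muscle and 7 adipocyte markers in each library, as log2 CPM relative to the GRwt mean; lines only join the points. All 4 are high in GRdim replicates 1 and 3 and at or below the GRwt mean in GRdim replicate 2.

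C2, the protease partner of C4b in the convertase, was a low transcript, with 75 to 199 counts per library. It stood at 5.21, 3.81 and 2.79 CPM in GRwt and at 4.04, 3.17 and 7.31 CPM in GRdim tumors. GRdim replicate 3 was the highest and the other 5 were interleaved. The log2 fold change was 0.30 with a standard error of 0.406 (edgeR, adjusted p = 0.9999; exact permutation p = 0.6), and -0.13 without GRdim replicate 3. Its r with C4b over the 6 libraries was 0.80. With the fibroblast markers it was 0.74, with the smooth muscle markers 0.75 and with the adipocyte markers 0.66.

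C3, on which all routes converge, stood at 122, 77.4 and 116 CPM in GRwt and at 151, 67.1 and 95.01 CPM in GRdim tumors. GRdim tumors held both the highest and the lowest library, and the means of 105 ± 24.4 and 104 ± 42.8 CPM (SD, n = 3 each) were nearly equal. The log2 fold change was -0.01 with a standard error of 0.31, and the fold had a 95% interval from 0.607 to 1.62 (edgeR, adjusted p = 0.9999; exact permutation p = 1). The sign changed when GRwt replicate 1, GRwt replicate 3, GRdim replicate 2 or GRdim replicate 3 was left out. The r of C3 over the 6 libraries was 0.68 with fibroblast, 0.67 with adipocyte and 0.65 with macrophage markers, and -0.50 with epithelial markers.

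Factor B and properdin serve the alternative route. Cfb stood at 0.952, 4.37 and 3.15 CPM in GRwt and at 2.96, 3.77 and 3.20 CPM in GRdim tumors, from 32 to 133 counts per library. The 3 GRdim libraries lay close together inside the GRwt range, and GRwt replicate 1, which was the highest of all in C1q, was the lowest in Cfb. The log2 fold change was 0.24 with a standard error of 0.513 (edgeR, adjusted p = 0.9999; exact permutation p = 0.8), and -0.18 without GRwt replicate 1. C3 exceeded Cfb by a factor between 17.4 and 120.2 within a library, the largest factor again in GRwt replicate 1. The adjacent genes Cfb and C2 did not vary together: their log2 ratio ran from -2.37 to 0.24 and their r over the 6 libraries was -0.35.

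Cfp stood at 25.5, 15.8 and 16.5 CPM in GRwt and at 15.6, 17.0 and 16.2 CPM in GRdim tumors. GRwt replicate 1 was high and the other 5 libraries lay between 15.6 and 17.0 CPM. The log2 fold change was -0.25 with a standard error of 0.234 (edgeR, adjusted p = 0.9999; exact permutation p = 0.6), and 0.0090 without GRwt replicate 1. Over the 6 libraries its r was 0.72 with C1qa, 0.84 with C1qb and 0.81 with C1qc, while its r with the macrophage markers as a group was 0.23. GRwt replicate 1 weighs on the first 3 of these values, since it was the highest library for all 4 genes.

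Cd55, the membrane regulator, was the steadiest of the 9. It stood at 94.8, 124 and 93.0 CPM in GRwt and at 98.4, 99.3 and 121 CPM in GRdim tumors. The highest library exceeded the lowest by a factor of 1.34, a smaller range than in all but 18.3% of genes with a mean of at least 10 CPM. The log2 fold change was 0.03 with a standard error of 0.187 (edgeR, adjusted p = 0.9999; exact permutation p = 0.6). Cd55 had an r of 0.71 with epithelial and -0.71 with macrophage markers over the 6 libraries. The ratio of C3 to Cd55 lay between 0.622 and 1.54 within a library, at a mean log2 of 0.0020 ± 0.595 in GRwt and -0.10 ± 0.631 in GRdim tumors (SD, n = 3 each).

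The rest of the complement system also showed no difference past the threshold. Of 56 further complement genes 43 were in the table and 42 were tested, 26 of them higher and 16 lower in GRdim tumors, with a median log2 fold change of 0.07 beside 0.0040 over all genes. 0 passed an adjusted p of 0.05 in edgeR, DESeq2 or limma-voom. At an unadjusted p under 0.05, 0 were higher, against 1.79% of all genes, and 2 were lower, against 1.09%. Those were Cfi, complement factor I, which degrades active C3 and C4 fragments, and Calr, calreticulin, an endoplasmic reticulum chaperone that binds C1q. Cfi stood at 29.4, 11.5 and 24.2 CPM in GRwt and at 5.09, 16.8 and 6.17 CPM in GRdim tumors (log2 fold change -1.21, standard error 0.503, unadjusted p = 0.0408). GRdim replicate 2 lay within the GRwt range, and GRdim replicates 1 and 3, high in C4b, were low in Cfi. Calr was lower in every GRdim library, at 999 to 1178 CPM, than in any GRwt library, at 1336 to 1783 CPM (log2 fold change -0.55, unadjusted p = 0.0367, not past the threshold).

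By role, the classical and lectin genes C1ra, C1rb, C1s1, C1s2 and others had 5 higher and 5 lower of 10 tested, with a median of -0.0039. Among fluid-phase regulators 4 of 8 were higher, among membrane regulators 7 of 7 (median 0.35; 6 of 7 with DESeq2 and 5 of 7 with limma-voom), and among receptors 7 of 13 (median 0.05; 5 of 13 with limma-voom). The terminal components Hc, C6 and C8g, the tested ones of 7 listed, had 2 higher and 1 lower with a median of 0.16. The membrane regulators included Cr1l, a rodent inhibitor of C3 convertases, at 85.1 ± 10.8 and 85.0 ± 4.07 CPM with a log2 fold change of 0.0003 (SD, n = 3 each). No membrane regulator had an unadjusted p under 0.05. C1s1, the protease of the C1 complex, averaged 39.7 ± 4.75 CPM in GRwt against 51.2 ± 10.4 CPM in GRdim tumors (unadjusted p = 0.105). Vtn, vitronectin, an inhibitor of the terminal complex, was higher without overlap at 0.203 to 0.893 against 1.05 to 1.84 CPM, levels that rest on few reads (unadjusted p = 0.0749). Itgax, a chain of complement receptor 4, also did not overlap, at 14.4 to 20.6 against 20.7 to 21.6 CPM (unadjusted p = 0.239). Without overlap were thus 2 higher and 1 lower of the 42, where 2.98% and 3.57% of all genes were. Colec10 and Csmd1, both near or below 1 CPM, had log2 fold changes of 0.83 and 1.31, and C5ar1 and Cpn1, the receptor for the C5a fragment and a carboxypeptidase that inactivates it, -0.46 and -0.27, none at an unadjusted p under 0.05.

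Cfd, factor D, the protease that activates factor B and a known adipocyte product, was named after its values were seen because it split the libraries. It stood at 10.8 CPM in GRwt replicate 1 and at 39.3 and 25.2 CPM in GRdim replicates 1 and 3. It was at 0.227 CPM (8 counts) in GRdim replicate 2 and at 0 counts in GRwt replicates 2 and 3, where a count of 0 allows up to 0.153 and 0.0829 CPM (3 counts, counting error only). The libraries with Cfd at 10.8 CPM or more were the ones with the adipocyte hormone Adipoq, at 3.04, 12.0 and 4.77 CPM, against at most 0.0567 CPM in the other 3. Of the other adipocyte markers listed, Plin1, Lep, Cidec, Fabp4, Retn and Lipe split the libraries likewise, Lipe narrowly. Pck1 did not, at 124 CPM in GRwt replicate 2 and 15.5 CPM in GRdim replicate 3. Cfd did not pass the test (edgeR, unadjusted p = 0.214), and the part of adipose tissue in its level was not tested.

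**Figure D5:**
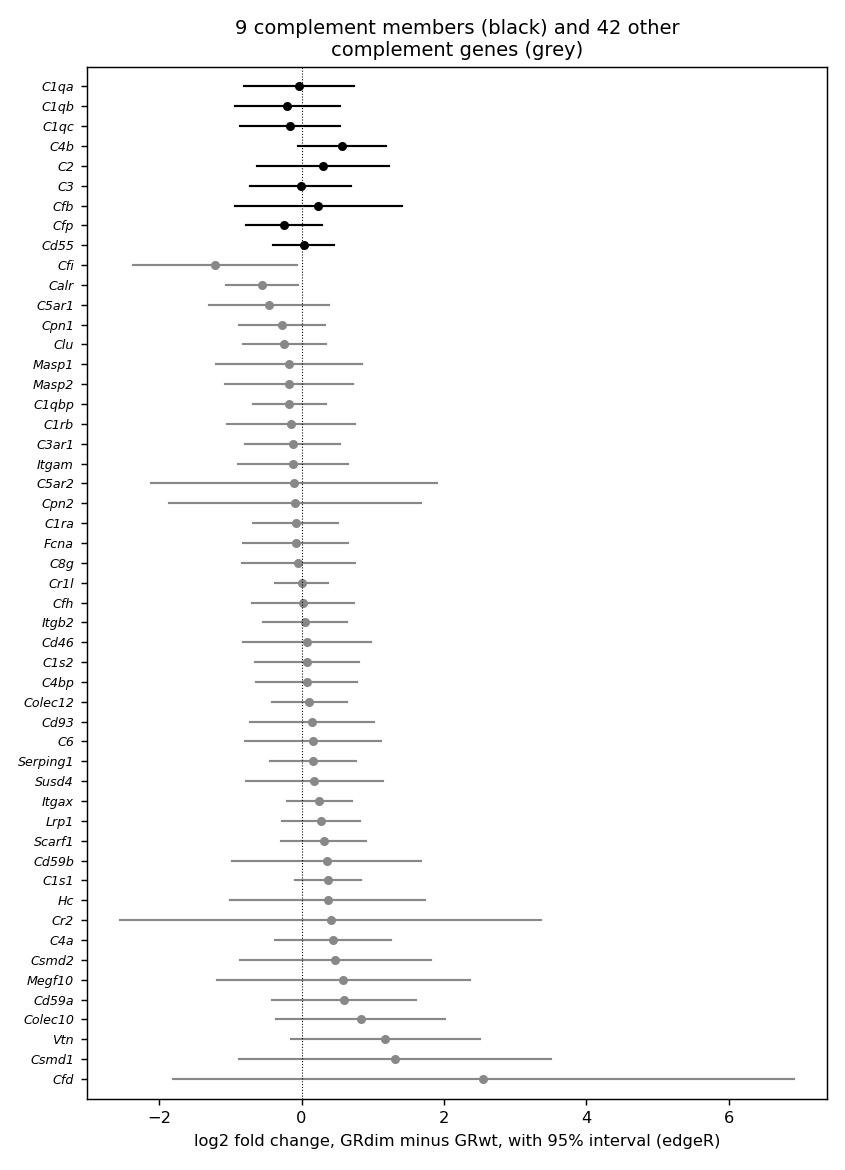
Log2 fold changes (GRdim minus GRwt) with 95% intervals from edgeR for the 9 complement genes in black and 42 further complement genes in grey. All 9 black intervals include 0, with C4b reaching it only at its lower end of -0.04, and of the grey ones those of Cfi and Calr do not.

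Among the cytokines known to induce complement genes, 5 of 9 listed were tested and all 5 were lower in GRdim tumors, with a median log2 fold change of -1.11 and 2, Il1a and Il1b, at an unadjusted p under 0.05, against 1.09% of all genes that were lower at that p. With limma-voom 4 of the 5 were lower, and 3 of 5 among the 4 libraries named without a T. Il1a and Il1b were known from earlier results of these data to be lower. Of 11 tested neutrophil markers 10 were lower, with a median of -1.48. The 9 complement genes had a median of -0.01.

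The genes whose pattern over the 6 libraries was most like that of each member were sought among 11656 named genes with a mean of at least 5 CPM, by Pearson's r of log2 CPM. For C1qa they were Pick1, Tmem60 and Mrpl33 (r of at least 0.99 each), for C1qb Smoc2, Marchf5 and Spsb1 (r of at least 0.99), and for C1qc Cmtm7, Rbx1 and Marchf5 (r of at least 0.99). For C4b they were Ogn, Oas3 and Col6a2 (r of 0.99, 0.98 and 0.98), for C2 Fkbp7, Rtl8b and Kctd17 (0.99 each), and for C3 Lpl, Dip2c and Abi2 (0.99 each). For Cfb they were Ascc2, Stat6 and Sik3 (0.96 each), for Cfp Zranb3, Lbhd1 and Timm10b (0.98, 0.98 and 0.96), and for Cd55 Rassf3, Rab32 and Lad1 (0.98 each). With 6 points such values are common: 153 genes reached an r of 0.95 with C1qa, 69 with C1qb and 122 with C1qc, but 24 with C4b, 12 with Cfb and 6 with Cfp. The other C1q genes were not among the leading 3 for any of the C1q genes.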

How the data were processed

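Polyadenylated RNA of 6 tumor samples was sequenced after an Illumina stranded mRNA preparation, per the labels. The authors' table gives unnormalized read counts for each gene in 6 library columns, which were matched to samples by the library names of the labels. Per the submitters' processing notes the tools included bcl2fastq 2.20.0.422, Trim Galore, FastQC, MultiQC, STAR 2.7.8a, featureCounts of Subread 1.5.0 and DESeq2 1.40.2, with build GRCm39; annotation release and strand setting are not given in the sources used here.

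The main test was the quasi-likelihood F test of edgeR 4.0.16 (R 4.3.3; TMM, default filter by group, robust estimation), which left 18756 of 24797 genes, and p-values were adjusted by Benjamini-Hochberg over these 18756. Log2 CPM used a prior count of 2. Standard errors are the fold change divided by the square root of F, and 95% intervals follow from them; the common coefficient of variation was 0.33. Exact permutation tests were two-sided. Alternatives were DESeq2 1.42.0, limma-voom with quality weights (limma 3.58.1), relative log expression size factors, no low-count filter, the T of the library names as covariate, the replicate number as block, GRdim replicates 1 and 3 summed, the libraries without a T alone, and each library left out. The procedure was also run on simulated counts, drawn independently for each library at a fixed dispersion. They held no shared animal, sex difference, T libraries or varying tissue content, so that run does not cover these features of the data. Members and gene lists were chosen with earlier results of these data known. Named genes are all members, the 4 further complement genes of smallest p per direction, and the 3 most alike per member; any other gene named was chosen after its values were seen. Lists are described by counts, medians, mean log2 CPM and summed CPM per library, r with members and ratios of members to list means. No list was tested as a set. Macrophage, neutrophil, epithelial, fibroblast, mesothelial, smooth muscle, adipocyte, endothelial, B cell and T cell markers were listed. Promoters came from RefSeq (GRCm38.p6) and exon lengths from GENCODE vM21 (GRCm38), used only as lengths.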

Additional observations from a re-analysis of the deposited data

How the results depend on the processing

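None of the 9 genes and none of the further complement genes passed an adjusted p of 0.05 under any of 14 alternatives each, and the number of genes passing over the whole table was 0 except with DESeq2, which called 33. Of 126 fold changes of members under alternatives, 105 kept their sign and 21 did not; C4b kept its sign in all 14. Leaving out each library in turn gave log2 fold changes from -0.28 to 0.36 for C1qa, -0.40 to 0.21 for C1qb, -0.40 to 0.21 for C1qc, -0.13 to 0.55 for C2, -0.38 to 0.22 for C3, 0.32 to 0.82 for C4b, -0.18 to 0.69 for Cfb, -0.37 to 0.0090 for Cfp and -0.079 to 0.18 for Cd55. With limma-voom the sign changed for C1qa (0.07) and Cd55 (-0.048), and with GRdim replicates 1 and 3 summed for C1qa (0.0063) and Cd55 (-0.0028). The cause of these changes was not tested. With the replicate number as a block C1qa stood at 0.0058 and C4b at 0.52, no sign changed for the other members and no gene passed. Same-numbered libraries had deviations from their genotype means correlated at -0.39, 0.03 and -0.43 across genes. By these deviations 1 of 6 libraries correlated best, in the other genotype, with the library of its own number. The highest value was 0.45, between GRwt replicate 3 and GRdim replicate 1, both named with a T. Deviations within a genotype are tied to one another, so these values cannot settle whether a shared number marks a shared animal or day. Depth limits Cfb and C2, with at most 133 and 199 counts in a library.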

Other observations

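Endothelial markers were higher in 4 and lower in 3 of 7 tested, with a median log2 fold change of 0.17 in GRdim against GRwt tumors, B cell markers higher in 8 of 8 (median 0.83) and T cell markers higher in 7 of 8 (median 0.43). The B cell median was 2.24 with limma-voom and 3.01 in the 4 libraries named without a T, and 6 of 8 T cell markers were higher under each of these. Epithelial markers were lower in 10 of 10, by a median of 0.15 on the log2 scale, with 0 at an unadjusted p under 0.05. Of 8 mesothelial markers 4 were tested, 2 higher and 2 lower, both higher ones at an unadjusted p under 0.05 (1.79% of all genes). The higher ones were Gpm6a, at 0.119 to 2.42 CPM over the 6 libraries, and Muc16, at 0.595 to 7.24 CPM. Krt5, on that list but not among the tested ones, is also a keratin of squamous epithelium. It stood at 115 CPM in GRdim replicate 3 and at 0.153 to 4.9 CPM elsewhere, while Msln and Upk1b were lowest in that library. The defining marker Wt1 stood at no more than 0.262 CPM in any library. Cr2, the complement receptor of B cells and follicular dendritic cells, named after its values were seen, varied more between libraries than between genotypes. It stood at 1.13, 0.610 and 34.6 CPM in GRwt and at 17.9, 26.7 and 4.003 CPM in GRdim replicates 1, 2 and 3. Its order over the libraries was close to that of the B cell markers, whose mean log2 CPM relative to the GRwt mean lay at -0.99, -1.18 and 2.17 in GRwt and at 1.46, 2.51 and 0.59 in GRdim tumors.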
